A study of Drosophila melanogaster with 8 samples.

Results

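Chaperones keep other proteins folded, and 10 of their genes were followed here in wing discs that lack the transcription factor Myb: the small heat shock protein genes Hsp22, Hsp23, Hsp26, Hsp27 and Hsp67Bc, the heat-inducible Hsp70 relative Hsp68, and the constitutive chaperone genes Hsp83, Hsc70-4, Hsp60 and DnaJ-1. They were taken by symbol from a table of read counts for 14299 named genes, and all 10 were among the 9076 genes with enough reads to be tested. Polyadenylated RNA had been sequenced from mesothoracic wing discs, taken from male third-instar larvae of Drosophila melanogaster. The 5 Myb mutant libraries (M1 to M5) came from larvae with the X-linked null allele MH107, made by P-element mobilization. This allele lacks the 5′ end of Myb and also the neighbouring gene AlkB, and it kills at the early pupal stage. The 3 control libraries (Y6 to Y8) came from yw67 larvae, the laboratory line used for outcrossing the mutant. Flies of both genotypes were kept at 25 °C, and the labels name no heat treatment, age in hours or pooling of animals.

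The protocol text calls the libraries 5 and 3 biological replicates, whereas the sample descriptions make M1 a technical replicate of one biological replicate, M2 to M5 of another, and all of Y6 to Y8 of 1 control replicate. The p-values below therefore measure the spread between libraries, which may be technical. The libraries held 50562199 to 65322440 counts. Myb itself stood at 4.56 to 7.24 CPM (counts scaled to a common library size) in the mutant libraries and at 295 to 305 CPM in the control libraries, and AlkB had 0 counts in every mutant library, which fits the labels. Of 12 wing disc marker genes all were measured, with summed levels of 2842 to 2994 CPM in the mutant and 2127 to 2995 CPM in the control. Control library Y7 gave the lowest of these sums, and it stood apart in the chaperone genes too, so results are given with and without it. CPM are also scaled for library composition, so the levels of a gene can be compared between libraries but not between genes of different length. In a whole disc, fewer cells of a type and less RNA per cell cannot be told apart.

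Small heat shock proteins bind proteins that are losing their fold and hold them in a soluble state without using ATP. Hsp70 and its constitutive cognates then refold such clients in cycles of ATP hydrolysis that are started by J proteins such as DnaJ-1, while the fly Hsp90, encoded by Hsp83, matures kinases and hormone receptors and Hsp60 folds proteins inside mitochondria. In Drosophila, the small Hsp genes of cytological region 67B are switched on by heat through the factor Hsf, and several of them also without heat, late in larval life, in response to the steroid hormone ecdysone.

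With all 8 libraries, 5 of the 10 genes were lower in the Myb mutant (Hsp22, Hsp23, Hsp26, Hsp27 and Hsp68) and 0 were higher at an adjusted p under 0.05 in edgeR's quasi-likelihood test, where 17.5% of all tested genes were lower and 16.9% were higher. At an unadjusted p under 0.05 there were 5 lower and 1 higher, for which no share of all tested genes was computed. DESeq2 also called 5 lower and 1 higher (19.2% and 19.4% of all tested genes), and limma voom called 2 lower and 0 higher (17.3% and 16.9% of all tested genes). Without Y7, 2 of the 10 remained lower, Hsp23 and Hsp27, a share of 20% against 19.1% of all tested genes, so that the count then lay near the background. The count was also 2 lower without M1, M2 or M4 (beside 14.7%, 14.8% and 16.8% of all tested genes), and 3 lower without M3 or M5 (beside 13.9% and 13.2%). Without Y7, 0 were again higher, against 18.4% of all tested genes. The counts without Y7 at an unadjusted p under 0.05, again without such a share, were 3 lower and 0 higher. The median log2 fold change of the 10 genes was -0.31 with all libraries, where that of all tested genes was 0.01, and -0.17 without Y7.

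**Figure D1:**
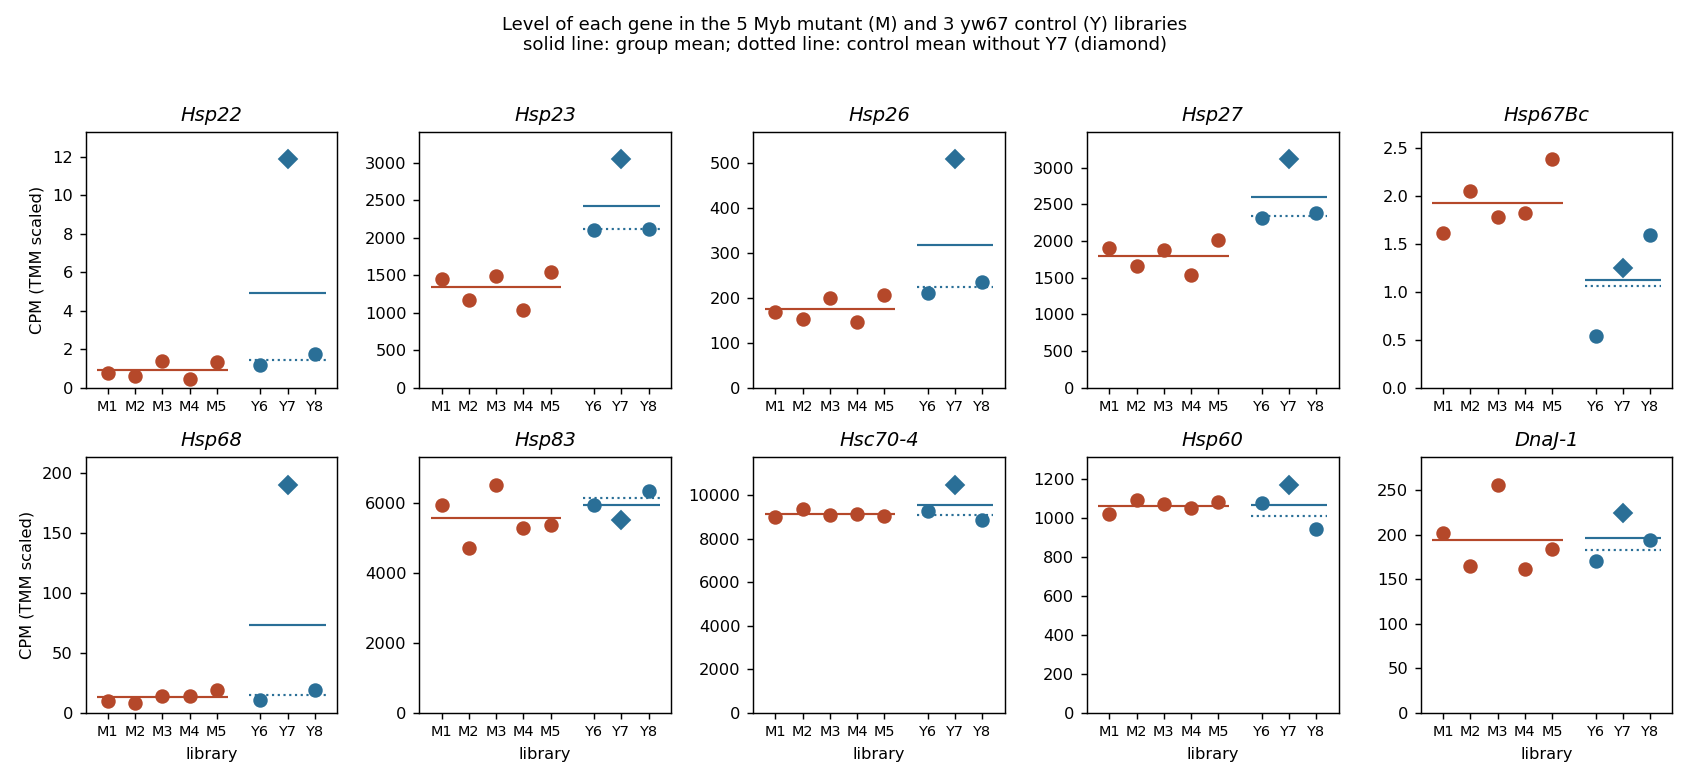
CPM (vertical axis, linear from 0, with its own scale for each gene) of the 10 chaperone genes in Myb mutant libraries M1 to M5 (red) and yw67 control libraries Y6 to Y8 (blue). Solid lines are group means, the dotted line is the control mean without Y7, and Y7 (diamond) is far above all other libraries for Hsp22, at 11.9 CPM, and Hsp68, at 190 CPM, while Hsp23 and Hsp27 separate the genotypes with or without it.

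Hsp23 (FBgn0001224; 3L, 9381882 to 9382765 on the plus strand of BDGP6, with no intron), a cytosolic small Hsp, stood at 1441, 1170, 1493, 1039 and 1543 CPM in M1 to M5, against 2107, 3042 and 2112 CPM in Y6 to Y8. Every mutant library lay below every control library, M4 and M2 were the lowest, and Y6 and Y8 were almost the same. The means were 1337 ± 221 CPM in the mutant (SD, n = 5) and 2420 ± 539 CPM in the control (n = 3). The log2 fold change was -0.86 ± 0.16 (SE, edgeR adjusted p = 0.00455), and -0.66 ± 0.15 without Y7 (edgeR adjusted p = 0.0107), a level 1.58-fold lower. Hsp23 had the strongest call of the 10 genes in both fits.

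Hsp27 (FBgn0001226; 3L, 9384063 to 9385694, plus strand, no intron) encodes a small Hsp found in the nucleus. It stood at 1899, 1660, 1876, 1540 and 2012 CPM in M1 to M5, against 2309, 3114 and 2385 CPM in Y6 to Y8. The genotypes again did not overlap, and M4 and M2 were again the lowest. With means of 1798 ± 192 CPM in the mutant and 2603 ± 444 CPM in the control, the log2 fold change was -0.53 ± 0.12 (edgeR adjusted p = 0.00892), and -0.39 ± 0.10 without Y7 (edgeR adjusted p = 0.0172).

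Hsp26 (FBgn0001225; 3L, 9376418 to 9377427, minus strand, no intron), another cytosolic member, stood at 169, 154, 200, 145 and 206 CPM in M1 to M5, against 211, 508 and 235 CPM in Y6 to Y8. The groups did not overlap, but only just, since M5 at 206 CPM lay beside Y6 at 211 CPM. Y7 was 2.28 times the mean of Y6 and Y8. The log2 fold change of -0.87 ± 0.27 (edgeR adjusted p = 0.0372) became -0.36 ± 0.14 without Y7, when it no longer passed (edgeR adjusted p = 0.0833). The call was also lost when any one of M1 to M5 was left out (edgeR adjusted p of 0.0537 to 0.0772).

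Hsp22 (FBgn0001223; 3L, 9372931 to 9374964, plus strand), the small Hsp of the mitochondrial matrix, was scarce, with 272 counts over the mutant libraries and 812 over the control libraries. It stood at 0.735, 0.620, 1.36, 0.426 and 1.35 CPM in M1 to M5, against 1.15, 11.9 and 1.73 CPM in Y6 to Y8. The genotypes overlapped, and Y7 was 8.23 times the mean of the other control libraries. Its log2 fold change was -2.45 ± 0.73 with all libraries (edgeR adjusted p = 0.0314) and -0.69 ± 0.46 without Y7 (edgeR adjusted p = 0.278). The call was lost without M1, M2 or M4 too (edgeR adjusted p = 0.0627, 0.0692 and 0.0631).

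Hsp67Bc (FBgn0001229; 3L, 9371511 to 9372497, minus strand, no intron) encodes a small Hsp that in flies works with the cochaperone Starvin. It was the only one of the 5 small Hsp genes with a higher mean in the mutant. It stood at 1.61, 2.05, 1.78, 1.82 and 2.38 CPM in M1 to M5, against 0.536, 1.24 and 1.59 CPM in Y6 to Y8. The genotypes did not overlap, with M1 and Y8 side by side. In edgeR the log2 fold change of 0.78 ± 0.32 did not pass (edgeR adjusted p = 0.0930), nor did that of 0.85 ± 0.39 without Y7 (edgeR adjusted p = 0.125). DESeq2 called it (adjusted p = 0.0410), and so did edgeR without Y8, at 1.11 (adjusted p = 0.0382).

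Hsp68 (FBgn0001230; 3R, 24055080 to 24057310, minus strand, no intron), an Hsp70 family gene that is induced by heat, stood at 9.39, 8.50, 13.6, 14.1 and 19.1 CPM in M1 to M5, against 10.7, 190 and 18.8 CPM in Y6 to Y8. All mutant libraries lay in or near the range of Y6 and Y8, and Y7 was 12.9 times their mean. Its log2 fold change of -2.50 ± 0.80 (edgeR adjusted p = 0.0404) rested on Y7, since without it the value was -0.19 ± 0.34 (edgeR adjusted p = 0.690). Leaving out any one of M1 to M5 also took the adjusted p past the threshold, to 0.0622 to 0.0851 in edgeR.

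The 4 constitutive chaperone genes passed no test in either fit. Hsp83 (FBgn0001233; 3L, 3192969 to 3197059, plus strand, 1 intron) stood at 5953, 4710, 6528, 5288 and 5369 CPM in M1 to M5, against 5943, 5514 and 6330 CPM in Y6 to Y8. M3 was the highest library of all, M2 the lowest, and Y7 was the lowest control library. The log2 fold change was -0.09 ± 0.10 (edgeR adjusted p = 0.518), with a 95% interval from the SE of -0.29 to 0.11, and -0.15 ± 0.11 without Y7 (edgeR adjusted p = 0.340).

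Hsc70-4 (FBgn0001219; 3R, 15242687 to 15246614, plus strand), the main cytosolic Hsp70 cognate, stood at 8994, 9360, 9098, 9139 and 9055 CPM in M1 to M5, against 9270, 10481 and 8851 CPM in Y6 to Y8. It varied least of the 10 genes among the mutant libraries, with a coefficient of variation of 1.53%, and all 5 lay between Y8 and Y7. Between genotypes the log2 fold change was -0.06 ± 0.05 (edgeR adjusted p = 0.402, 95% interval -0.17 to 0.04) and 0.01 ± 0.02 without Y7 (edgeR adjusted p = 0.876).

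Hsp60, named Hsp60A in BDGP6 (FBgn0015245; X, 11108482 to 11112308, plus strand, 2 introns), stood at 1021, 1091, 1071, 1054 and 1085 CPM in M1 to M5, against 1079, 1173 and 945 CPM in Y6 to Y8. The mutant libraries were inside the control range. The log2 fold change was -0.0022 ± 0.07 (edgeR adjusted p = 0.984, 95% interval -0.14 to 0.14) and 0.07 ± 0.05 without Y7 (edgeR adjusted p = 0.367).

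DnaJ-1 (FBgn0015657; 3L, 5750029 to 5752189, minus strand), a J protein gene that heat also induces, stood at 202, 165, 256, 161 and 184 CPM in M1 to M5, against 171, 225 and 194 CPM in Y6 to Y8. The genotypes overlapped, and M3 was the highest library. Its log2 fold change was -0.02 ± 0.16 (edgeR adjusted p = 0.929, 95% interval -0.33 to 0.29) and 0.08 ± 0.18 without Y7 (edgeR adjusted p = 0.757). The intervals are normal ones from the SE, which may be too narrow with so few libraries. For all 4 genes they leave room for a difference of up to the bounds given or more, so they do not show equal levels.

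The exact permutation test over libraries, two-sided on log2(CPM + 0.5), gave 0.0357 for Hsp23, Hsp26, Hsp27 and Hsp67Bc, the smallest p that 5 against 3 libraries allow. It was 0.107 for Hsp22, 0.25 for Hsp68 and 0.464 to 0.964 for the constitutive genes in the same exact test. Of the genes that did not overlap, 3 of the 10 were lower and 1 was higher in the mutant, where 19.3% of all tested genes were lower without overlap and 19.6% were higher. Without Y7 the same 4 genes did not overlap, beside 24.8% lower and 26.2% higher of all tested genes, and 5 against 2 libraries cannot give an exact p below 0.0952.

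**Figure D2:**
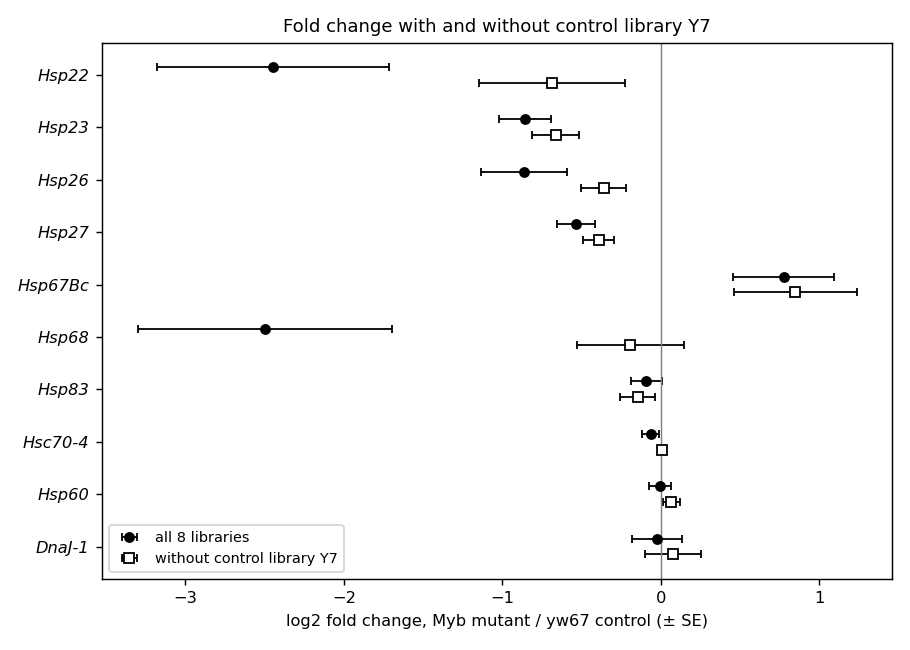
Log2 fold change of the Myb mutant over the yw67 control (horizontal axis, ± SE) for the 10 genes, with all 8 libraries (filled circles) and without control library Y7 (open squares). Hsp68 moves to -0.19 and Hsp22 to -0.69 once Y7 is left out, while Hsp23 stays at -0.66 and Hsp27 at -0.39.

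Per length of exon, Hsc70-4 gave the highest level, 3361 ± 51.5 CPM per kb in the mutant and 3510 ± 312 CPM per kb in the control. In the mutant Hsp83 came next at 1882 CPM per kb, followed by Hsp23 at 1513 CPM per kb and Hsp27 at 1101 CPM per kb. Over the mutant libraries the range of Hsp23 overlapped those of both Hsp83 and Hsp27, and no other neighbours in the order overlapped. Overlap here and below is of ranges over libraries, and the order within each library was not compared. In the control, Hsp23 at 2738 CPM per kb came before Hsp83 at 2003 CPM per kb, with no overlap between them, and Hsp27 followed at 1595 CPM per kb. Hsp60, Hsp26 and DnaJ-1 came lower in both genotypes, at 429, 173 and 89.6 CPM per kb in the mutant and 430, 315 and 91.0 CPM per kb in the control. Hsp68, Hsp67Bc and Hsp22 were the scarcest in both, at 5.80, 1.95 and 0.473 CPM per kb in the mutant and at 32.8, 1.14 and 2.59 CPM per kb in the control. Between the genotypes only the order of Hsp23 and Hsp83 and that of Hsp22 and Hsp67Bc differed, and without Y7 the order of Hsp22 and Hsp67Bc was the same in both. In the control, Hsc70-4 overlapped Hsp23, Hsp83 overlapped Hsp27, Hsp60 overlapped Hsp26 and Hsp68 overlapped DnaJ-1 and Hsp22, none of which held without Y7, while Hsp22 and Hsp67Bc overlapped either way. The levels per kb use the exons of BDGP6, which can differ from the older gene models behind the counts. Together the 10 genes took 1.81% to 2.07% of the counts in mutant libraries and 2.12% to 2.34% in control libraries, with the highest share in Y7.

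The part of Y7 in these values can be read from its ratio to the mean of Y6 and Y8 over 9054 tested genes. Y7 was at least 4-fold higher for 23 of them and at least 10-fold higher for 8, and at least 4-fold lower for 103 and at least 10-fold lower for 58. Of the 10 genes, 2 were among the 23 and 0 among the 103. The 6 near-identical Hsp70 genes held the first 6 ranks, at 16.0-fold to 24.5-fold, with Hsp68 at rank 7 and Hsp22 at rank 11. Hsp26 came at rank 81 of the 9054 ratios, Hsp23 at 394, Hsp27 at 669 and DnaJ-1 at 1159, while Hsp67Bc, Hsp60 and Hsc70-4 were 1.16-fold to 1.17-fold higher in Y7 and Hsp83 was at 0.899 of the other control libraries. Among the 10 genes, Hsp83 was the only one below the mean of Y6 and Y8 in Y7.

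Mutant libraries differed in the same genes at a lower level. Hsp70Aa, which encodes the heat-induced Hsp70, stood at 2.38, 3.93, 11.2, 12.3 and 41.3 CPM in M1 to M5, against 15.7, 357 and 28.5 CPM in Y6 to Y8. Relative to the mean of Y6 and Y8, M5 was at 0.89 on the log2 scale and M1 was at -2.97. The Hsp70 copies are near-identical, so their single values depend on how reads were assigned and are uncertain. Hsp68 shared the low end (M2 and M1) and the high end (M5) with them, whereas Hsp23, Hsp26, Hsp27 and Hsp22 were all lowest in M4 and next lowest in M2.

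**Figure D3:**
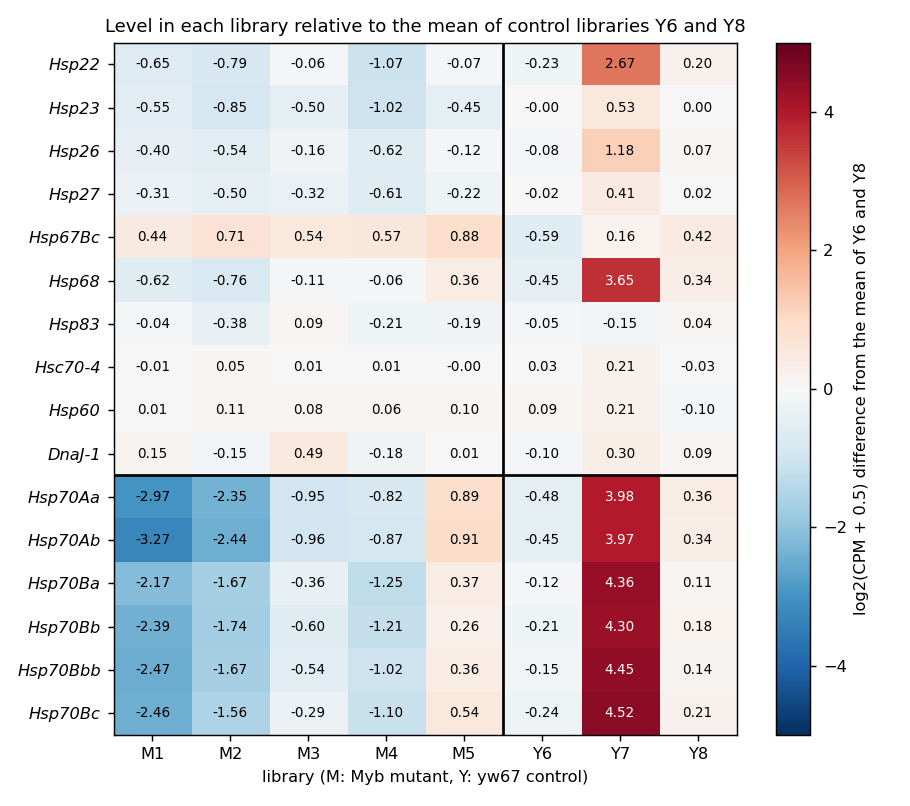
Difference of log2(CPM + 0.5) from the mean of control libraries Y6 and Y8 (color and printed value) for the 10 genes and, under the horizontal line, the 6 Hsp70 copies, in mutant libraries M1 to M5 and control libraries Y6 to Y8. Y7 is raised by 3.65 for Hsp68 and 4.52 for Hsp70Bc, Hsp23 and Hsp27 are below 0 in all 5 mutant libraries and Hsp67Bc is above 0 in all 5.

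The 10 genes varied more between libraries of a genotype than most genes did. Their median coefficient of variation was 15.5% in the mutant, where that of all tested genes was 5.04%, and 8 of the 10 lay above that background. In the control it was 19.7% beside 9.71%, and 8.35% beside 4.00% without Y7. The lowest values in the mutant were those of Hsc70-4 and Hsp60, at 1.53% and 2.66%, and the highest was that of Hsp22, at 48.0%, which rests on few counts.

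Some of the genes deviated together. The libraries' deviations from their genotype means, over 8 libraries that are shared by both genes, correlated at 0.99 between Hsp23 and Hsp27 (Pearson's r, a description with no p) and at 0.98 without Y7. For Hsp22 and Hsp26 the values were 1.00 and 0.99. Hsp83 and DnaJ-1 gave 0.66, and 0.91 without Y7, both being highest in M3 among mutant libraries. Hsc70-4 and Hsp60 gave 0.90 and 0.86. By contrast, Hsp22 and Hsc70-4 gave 0.79 with Y7 and -0.49 without it.

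The 5 small Hsp genes lie within 14184 bases of chromosome arm 3L (9371511 to 9385694, BDGP6), with 3 other genes between them. One of these, Hsp67Ba (FBgn0001227), a further gene of the small Hsp family, stood at 166, 147, 173, 126 and 177 CPM in M1 to M5, against 225, 300 and 228 CPM in Y6 to Y8. All mutant libraries were lower and M4 and M2 were again the lowest. Its log2 fold change was -0.67 ± 0.13 (edgeR adjusted p = 0.00513), and -0.53 ± 0.12 without Y7 (edgeR adjusted p = 0.0129).

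Hsp67Bb, named CG4456 in BDGP6, covers Hsp22 on the same strand, so reads of the pair may have been split between them. Its log2 fold change was -2.29 ± 0.68 (edgeR adjusted p = 0.0299), and -0.54 ± 0.32 without Y7 (edgeR adjusted p = 0.225), so that its call too was lost. CG4461, a small Hsp gene next to Hsp26, had too few reads to be tested.

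Over the region with the 3 genes on each side, 7 of 13 tested genes were lower and 1 was higher with all libraries. Of all tested genes, 17.5% were lower and 16.9% higher. The 7 count both Hsp22 and Hsp67Bb, whose reads may have been split between them. Without Y7, 3 were lower (Hsp67Ba, Hsp23 and Hsp27) and 1 was higher, where 19.1% and 18.4% of all tested genes were. The flanking genes moved little. CG4452 fell by 0.19 on the log2 scale (edgeR adjusted p = 0.0344, lost without Y7) and CG4080 rose by 0.21 (edgeR adjusted p = 0.00709). The 4 other flanking genes did not pass with all libraries, at -0.03 for CG4447, 0.24 for Fdxh, -0.05 for eIF-4E and 0.06 for Cpr67B. Hsp26 was at -0.36 without Y7, close to Hsp27 at -0.39, and in the sums of libraries by described biological replicate without Y7, with 1 control sample, Hsp26 passed (edgeR adjusted p = 0.0384) and Hsp27 did not (edgeR adjusted p = 0.0862), so which of them is called depends on the fit.

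**Figure D4:**
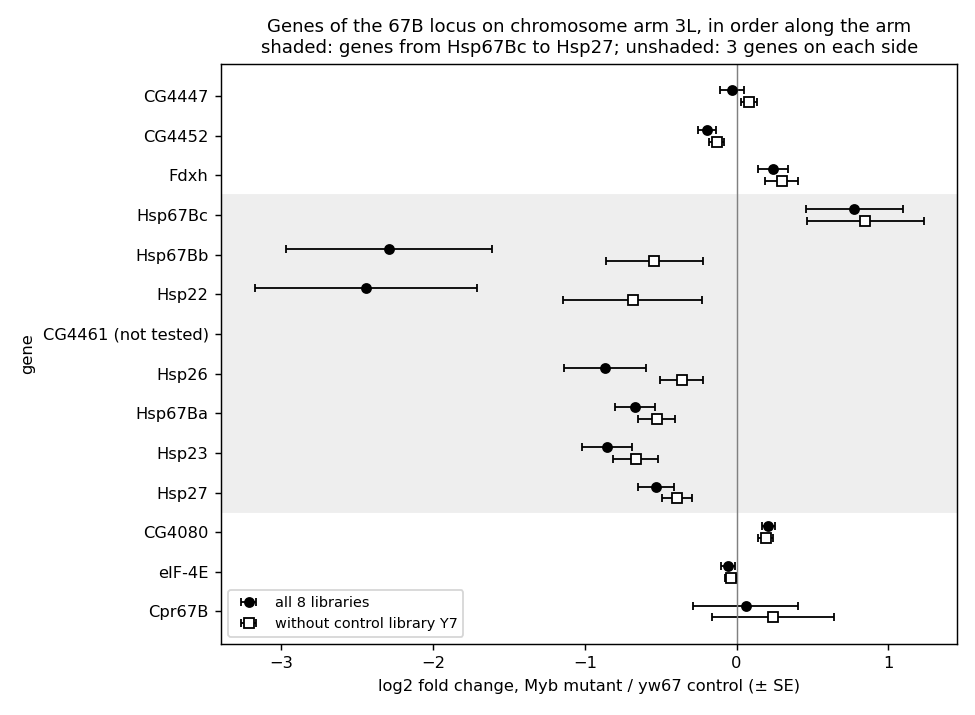
Log2 fold change of the Myb mutant over the yw67 control (horizontal axis, ± SE) for the genes of region 67B in their order along chromosome arm 3L, with all 8 libraries (filled circles) and without Y7 (open squares). Shading marks the genes from Hsp67Bc to Hsp27, of which Hsp67Ba, Hsp23 and Hsp27 lie at -0.53, -0.66 and -0.39 without Y7.

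Many other chaperone genes were lower as well. Over 6 lists of chaperones and cochaperones and outside the 10 genes, 28 of 52 tested genes were lower and 2 were higher, or 53.8% lower where the background was 17.5%. Without Y7, 24 of 53 were lower and 4 were higher, where 19.1% and 18.4% of all tested genes were. The median log2 fold change was -0.19, and -0.16 without Y7. The 28 include 4 of the Hsp70 copies, which had the steepest falls and lost their calls without Y7. Once the libraries of each described biological replicate were added together, which leaves 1 control sample without a replicate against 2 mutant samples, 13 of 54 were lower, where 7.53% of all tested genes were, and 0 were higher, where 7.31% were. Those sums without Y7 gave 6 lower and 0 higher, where 4.45% and 4.97% of all tested genes were. The median log2 fold change of these chaperone genes in the sums was -0.19, and -0.15 without Y7. That of all tested genes was 0.01 and 0.02.

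Among Hsp70 cognates and their Hsp110 partners, 4 of 5 tested genes were lower with or without Y7, and 0 were higher, also at an unadjusted p under 0.05 and by DESeq2 and voom. For this list and those below, the shares of all tested genes were 17.5% lower and 16.9% higher, and 19.1% and 18.4% without Y7. They were 19.2% and 19.4% with DESeq2 and 17.3% and 16.9% with voom, and none was computed at the unadjusted p. Hsc70-3, the BiP of the endoplasmic reticulum, stood at 1330, 1138, 1222, 1156 and 1233 CPM in M1 to M5, against 1571, 1761 and 1592 CPM in Y6 to Y8. The genotypes were well apart, with a log2 fold change of -0.43 ± 0.07 (edgeR adjusted p = 0.00132), and -0.39 without Y7. Hsc70Cb, the Hsp110 nucleotide exchange factor, fell by 0.27 and Hsc70-5, the mitochondrial Hsp70, fell by 0.22 on the log2 scale (edgeR adjusted p = 0.00402 and 0.00625), and by 0.32 and 0.25 without Y7. Hsc70-4 was the tested gene of this list that did not pass.

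In the Hsp90 family and its cochaperones, 7 of 11 genes were lower and 0 were higher, the same counts that DESeq2 and voom gave, and 6 were lower and 0 higher without Y7. Gp93, the Hsp90 of the endoplasmic reticulum, stood at 1050, 975, 1003, 980 and 1018 CPM in M1 to M5, against 1191, 1391 and 1180 CPM in Y6 to Y8. Its fold change was -0.32 ± 0.06 on the log2 scale (edgeR adjusted p = 0.00574), and -0.24 without Y7. The cochaperones Sgt and Cdc37, which delivers kinases to Hsp90, were at -0.30 each (edgeR adjusted p = 0.0170 and 0.0111), and at -0.20 and -0.19 without Y7. Hsp83 itself did not pass.

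Of 21 tested J proteins and nucleotide exchange factors, 6 were lower and 2 were higher, beside 17.5% and 16.9% of all tested genes. Without Y7, 7 were lower and 3 higher, beside 19.1% and 18.4%. CG7130 stood at 2.38, 2.42, 1.96, 2.45 and 2.05 CPM in M1 to M5, against 5.80, 5.01 and 5.22 CPM in Y6 to Y8. It fell by 1.25 on the log2 scale (edgeR adjusted p = 9.1e-05) and by 1.30 without Y7, and Y7 was the lowest control library for it. The genes l(2)tid and CG4164 (shv) were at -0.36 and -0.34, and at -0.26 and -0.33 without Y7. The gene sec63, a J protein of the translocon, was higher at 0.18 (edgeR adjusted p = 0.0159), and at 0.20 without Y7. The call of jdp, at 0.99 on 154 counts in the mutant and 44 in the control, was lost without Y7 (edgeR adjusted p = 0.0656).

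Of 10 tested chaperonin genes, 6 were lower and 0 were higher with and without Y7, and the same counts came from DESeq2 and voom with all libraries. The lower ones include 3 subunits of the cytosolic chaperonin CCT, which folds actin and tubulin: CG5525 (CCT4) at -0.30, CG7033 (CCT2) at -0.22 and CG8351 (CCT7) at -0.21 (edgeR adjusted p = 0.00565, 0.00622 and 0.0171), and at -0.23, -0.20 and -0.16 without Y7. Hsp60 was not among them. By contrast, the 7 heat-inducible Hsp70 genes, with Hsp68 among them, gave 5 lower with a median log2 fold change of -3.81, and 0 lower at -0.68 without Y7, also at an unadjusted p under 0.05. DESeq2 gave no p-value to the 6 Hsp70 copies, and voom called 0 of the 7.

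Among 5 genes that regulate the heat shock response or belong to it, the nuclear RNA gene Hsromega was higher, with a log2 fold change of 0.31 ± 0.08 (edgeR adjusted p = 0.0142) and 0.26 without Y7, and CG2947 (HIP-R) was lower at -0.17 (edgeR adjusted p = 0.0237) and at -0.14 without Y7. Hsromega stood at 64.7, 78.7, 65.1, 74.9 and 73.8 CPM in M1 to M5, against 61.7, 53.9 and 56.9 CPM in Y6 to Y8, so that Y7 was its lowest control library. Hsf, the transcription factor of the response, was at -0.08 (edgeR adjusted p = 0.154), and at -0.12 without Y7 (edgeR adjusted p = 0.0125).

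**Figure D5:**
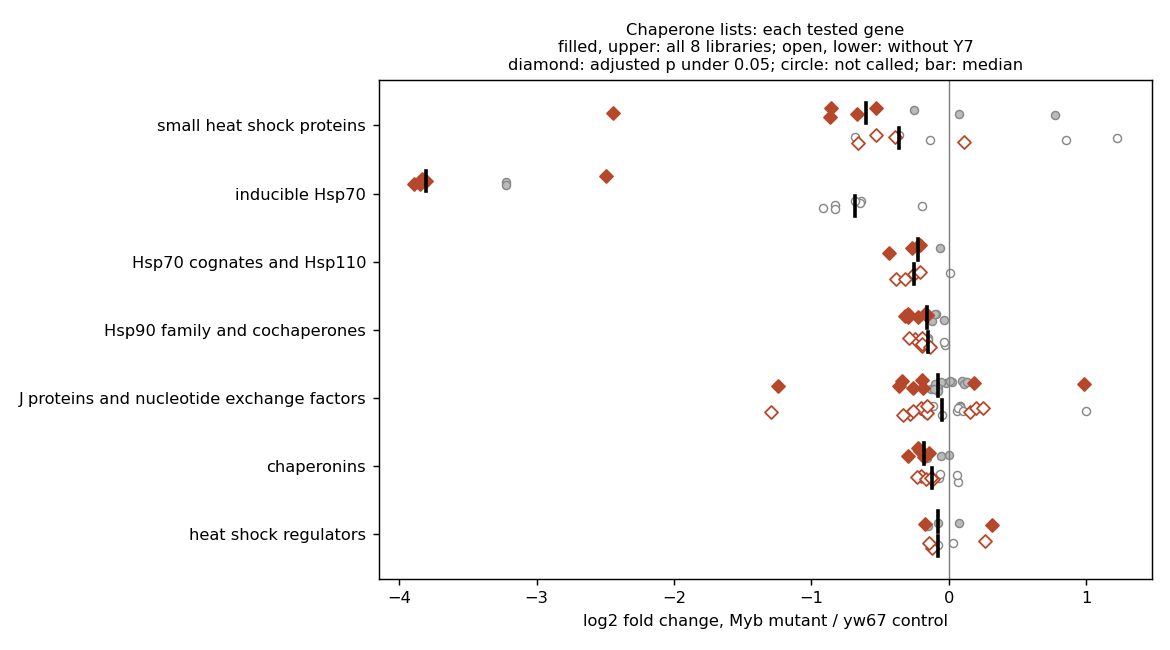
Log2 fold change of the Myb mutant over the yw67 control (horizontal axis) for each tested gene of 7 chaperone lists, with all 8 libraries (filled, upper row) and without Y7 (open, lower row). Diamonds passed an adjusted p of 0.05 in edgeR, circles did not, and bars are medians, which are -3.81 with all libraries and -0.68 without Y7 for inducible Hsp70, and -0.22 and -0.25 for Hsp70 cognates and Hsp110.

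The summed levels of some marker lists differed with the genotype or in Y7, and their part in these results was not tested. Among the genes of the ecdysone response, 3 of 19 tested were higher (Eip93F at 2.27, the nuclear receptor ftz-f1 at 1.43 and the receptor EcR at 0.54) and 2 were lower (ImpL2 at -0.32 and Hr78 at -0.22), with a median of 0.07. With all libraries these shares were no larger than the 16.9% higher and 17.5% lower of all tested genes. Without Y7, 4 were higher, with Eip93F at 2.12, ftz-f1 at 1.14 and EcR at 0.35, and 2 were lower. All tested genes gave 18.4% higher and 19.1% lower in that fit. Their summed level was 3458 to 5172 CPM in mutant libraries and 4108 to 6272 CPM in control libraries, with the highest value in Y7 and the lowest in M4.

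The gene that dominates this sum is ImpE2, an ecdysone-inducible gene of imaginal discs that is named here after its values were seen. It stood at 2988, 2226, 2471, 1706 and 2598 CPM in M1 to M5, against 2140, 4389 and 2497 CPM in Y6 to Y8, and did not pass the test (edgeR adjusted p = 0.332). ImpE2 was itself highest in Y7 and lowest in M4, so the order of the sums cannot be read as that of the whole list. EcR stood at 186 to 224 CPM in the mutant, against 158, 103 and 160 CPM in Y6 to Y8, so that Y7 was lowest. Y7 was also lowest for br, at 672, 481 and 650 CPM in Y6 to Y8. For ImpE3 it was highest, at 68.0, 140 and 84.5 CPM in Y6 to Y8.

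Of 7 tested hemocyte markers, 6 were lower in the mutant, and 5 without Y7, beside 17.5% and 19.1% of all tested genes. The list summed to 69.8 to 81.2 CPM in the mutant and 255 to 336 CPM in the control, but most of the mutant sum was ush, which did not pass, and the other markers summed to 5.68 to 18.0 CPM in the mutant and 190 to 267 CPM in the control. The defining marker Hml stood at 0.876 to 4.04 CPM in the mutant and 51.6 to 73.7 CPM in the control, and CG6124 (eater) at 0.132 to 2.19 CPM in the mutant and 27.9 to 44.2 CPM in the control. The crystal cell gene CG8193 (PPO2) stood at 0.161 to 12.8 CPM in the mutant and 32.7 to 65.6 CPM in the control (log2 fold change -4.07, edgeR adjusted p = 0.0270, and 0.0724 without Y7), and lz, another crystal cell marker, was too scarce to be tested. Fat body markers, of which 0 of 7 passed in either direction, also at an unadjusted p under 0.05 and by DESeq2 and voom, summed to 480 to 5287 CPM in the mutant and 75.6 to 4648 CPM in the control. Salivary gland markers, 0 of 6 by the same tests, summed to 0.649 to 193 CPM in the mutant and 4.07 to 17.6 CPM in the control. The glue gene markers Sgs1 and Sgs5 were at 0 in M4, and Y7 was the highest control library for the list.

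The 5 genes outside these lists and the 67B region whose log2 levels followed the mean of the 5 small Hsp genes most closely over the 8 libraries were SsRbeta, Gga, CG10674, mRpL34 and SC35, with r of 0.96 to 0.97 and of 0.80 to 0.95 without Y7 (a description, since the genes share the libraries). The 5 genes were picked on the same libraries, so a test of them between genotypes is no separate support. SsRbeta was the one of these that passed the test between genotypes, at -0.25 (edgeR adjusted p = 0.0429), and it did not pass without Y7, at -0.14 (edgeR adjusted p = 0.0523). Its level was 188, 181, 185, 176 and 197 CPM in M1 to M5, against 199, 256 and 207 CPM in Y6 to Y8, with M4 lowest and Y7 highest as for Hsp23.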

How the data were processed

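Polyadenylated RNA of wing discs from 5 Myb mutant and 3 yw67 control libraries was sequenced on 2 lanes. The authors trimmed reads with Trimmomatic (version 0.22 per the labels), aligned them with Bowtie2 version 2.1.0 to exons of an older FlyBase release, and took unique counts from eXpress, which they summed per gene. The deposited values used here were these raw counts, in 14300 rows. The authors' log2 fold changes, p-values and adjusted p-values in the same table were not used. Whether counting used strand is not given in the sources used here.

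A row pooling mitochondrial reads, 0.574% to 1.34% of the counts, was left out. The test was run in edgeR (version 4.0.16, under R 4.3.3) with filterByExpr, TMM scaling, glmQLFit and glmQLFTest and genotype as the only term, as in the study's own design. Adjustment was by Benjamini-Hochberg over all tested genes, and an adjusted p under 0.05 made a call. An SE was derived from the F statistic, as the size of the log2 fold change over the root of F. CPM are TMM scaled, and the exact permutation test used log2(CPM + 0.5). In simulated counts with 200 changed genes, edgeR made 6 false calls among 164, and DESeq2 made 44 among 207. There edgeR recovered 56% of 1.5-fold changes and 80% of 2-fold changes.

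Of the identifiers, 12120 were found in the BDGP6 annotation and 504 more were matched by symbol. Positions, introns and exon lengths are from BDGP6, not from the build used for alignment. The 10 genes and all lists were chosen with earlier results of these data known. Outside the 10 genes, the text names at most 3 called genes per list and direction by size of change, all genes of the 67B region, and the 5 genes most correlated with the small Hsp mean. Hsp70Aa, Hsp70Bc, ImpE2, ImpE3, br, Hsf and the markers given by name besides were chosen after their values were seen. The symbol Cct1 in the chaperonin list is Pcyt1 in BDGP6, which is no chaperonin, and was dropped, and HIP was not found. Marker lists of wing disc (2 higher of 12 tested), trachea (1 higher, 2 lower of 5), myoblast (1 higher of 6), muscle contraction (1 higher of 9) and neuron and glia (1 higher of 3) were also counted. Without Y7, 3 were higher for wing disc, 3 for myoblast and 1 for each other of these lists. Then 2 were lower for trachea and 1 for muscle contraction. The shares of all tested genes were 16.9% higher and 17.5% lower, and 18.4% and 19.1% without Y7. The alternatives were DESeq2 version 1.42.0, limma voom version 3.58.1, other scalings and filters, each library left out, libraries summed by described biological replicate, a replicate block and the mitochondrial row kept.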

Additional observations from a re-analysis of the deposited data

How the results depend on the processing

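Of 190 values of single genes under alternatives, 145 kept their direction and their side of the threshold. Hsp23 lost its call only with the replicate block (edgeR adjusted p = 0.0610) and Hsp27 with the block (edgeR adjusted p = 0.0829) and in the sums without Y7 (edgeR adjusted p = 0.0862). Leaving out each library in turn gave 2 to 5 of the 10 genes lower, with 2 lower without M1, M2, M4 or Y7 and 3 lower without M3 or M5. Without Y6 or Y8, 5 were lower, where 1396 of 9216 and 1484 of 9219 tested genes were. The count of higher genes was 0 to 1, with Hsp67Bc higher without Y8, where 1468 of 9219 tested genes were. The calls of Hsp26 and Hsp68 were lost when any one mutant library or Y7 was left out, and that of Hsp22 without M1, M2, M4 or Y7. limma voom gave 2 lower, and DESeq2 gave 1 higher. Summing libraries by described biological replicate left 1 control and 2 mutant samples, the control being assumed to vary like the mutant. It gave 744 higher and 766 lower of all tested genes, with 5 of the 10 lower, and the same sums without Y7, chosen after seeing the data, gave 492 higher, 440 lower and 2 of the 10 lower, Hsp23 and Hsp26 (edgeR adjusted p = 0.0403 and 0.0384). The replicate numbers were not taken as pairs, since same-numbered deviations correlated at 0.32, -0.11 and 0.0076. For number 1 no other mutant library correlated more (M4 at 0.27), but for numbers 2 and 3 others did (M5 at 0.069 and M2 at 0.45). A fit with the replicate block gave 750 higher and 647 lower of all genes and 0 of the 10 lower.

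Values near 0 changed sign. Hsp60 was at 0.0010 with DESeq2, 0.0012 with voom, 0.0010 with RLE factors, 0.0061 with library totals, 0.0046 with genes of at least 1 CPM, -0.081 to 0.067 with a library left out and 0.059 in the sums without Y7. Hsc70-4 was at -0.11 to 0.0051 with a library left out and 0.0055 in the sums without Y7. DnaJ-1 was at -0.14 to 0.079 with a library left out, 0.11 in the sums without Y7 and 0.067 with the replicate block. The cause was not tested. Depth limits the values of Hsp22 and Hsp67Bc, which had few counts. The planned search of promoters for heat shock element letters was not run.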
